A study of Homo sapiens with 12 samples.

Results

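The miR-181 family is described here by 6 of the 2652 mature miRNAs in the tables. These are the 4 arms cut from the 5′ side of their hairpins (hsa-miR-181a-5p, hsa-miR-181b-5p, hsa-miR-181c-5p and hsa-miR-181d-5p) and the 3′ arms of both miR-181a hairpins (hsa-miR-181a-3p and hsa-miR-181a-2-3p), written below without the species prefix. They were chosen by name, with earlier results of these data known. The other 4 family arms (miR-181b-3p, miR-181b-2-3p, miR-181c-3p and miR-181d-3p) are given beside them. The data come from SLAMseq of small RNA in Huh7, a human hepatocellular carcinoma cell line, in which 4-thiouridine (4SU) is taken up into RNA made during the labelling and is then read as C in place of T. Control cells received DMSO and no 4SU, DMSO cells received DMSO and 500 µM 4SU, and PlaB cells received pladienolide B (PlaB), an inhibitor of the splicing factor SF3B1, and 500 µM 4SU. Treatment lasted 4 h, and 4 independent experiments gave 4 libraries per condition. The sample labels give 500 µM for PlaB, whereas the methods of the study give 1 µM. For the samples that the study names DMSO A and DMSO B, reads of 3 sequencing runs were combined. The runs were of the original, a newly prepared and a re-amplified library. The sample labels carry no such letters, and A and B were taken as DMSO replicates 1 and 2.

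A miRNA hairpin yields a duplex of which Argonaute usually keeps one strand, the guide, while the other strand, the passenger, is discarded and turned over. Each miR-181 5p guide pairs with its target mRNAs mainly through its seed, bases 2 to 8. The family is known for work in lymphocyte development, and it has also been studied in liver cancer cells. Passengers are in general shorter-lived than guides.

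The mature sequences are printed because the guides share a seed while the 3′ arms tell the miR-181a hairpins apart. They are written 5′ to 3′ with the seed in capitals, from RefSeq on GRCh38.p14, and all 8 match the GRCh38 genome at their loci.
miR-181a-5p: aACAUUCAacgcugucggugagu
miR-181b-5p: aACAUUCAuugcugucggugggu
miR-181c-5p: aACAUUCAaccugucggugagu
miR-181d-5p: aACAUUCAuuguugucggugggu
miR-181a-3p: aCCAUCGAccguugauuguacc
miR-181a-2-3p: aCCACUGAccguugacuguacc
miR-181b-3p: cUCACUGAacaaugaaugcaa
miR-181b-2-3p: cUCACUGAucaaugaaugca

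All 4 guides carry the seed ACAUUCA. miR-181a-3p and miR-181a-2-3p have different seeds, CCAUCGA and CCACUGA, and differ at 3 of 22 bases, U5C, C6U and U16C, counted from 1 at the 5′ end with the base of miR-181a-3p first. miR-181b-3p and miR-181b-2-3p share the seed UCACUGA. miR-181b-5p and miR-181d-5p differ at 1 base, C12U, so a miR-181d-5p read with a T>C conversion at base 12 has the letters of miR-181b-5p. The number of U bases that could convert was 6 in miR-181a-5p, miR-181c-5p and miR-181a-3p, 5 in miR-181a-2-3p, 8 in miR-181b-5p and 9 in miR-181d-5p, and the T>C conversion rate is given per covered T position to allow for this.

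miR-181a-5p and miR-181b-5p are each made from hairpins at 2 loci, whereas each 3′ arm belongs to 1 locus. On chromosome 1, minus strand, MIR181A1 (198859044 to 198859153) and MIR181B1 (198858873 to 198858982) lie in introns of the lncRNA MIR181A1HG on the same strand. miR-181a-3p is at chr1:198859069-198859090 and miR-181b-3p at chr1:198858887-198858907. On chromosome 9, plus strand, MIR181A2 (124692442 to 124692551) and MIR181B2 (124693710 to 124693798) lie in an intron of the lncRNA MIR181A2HG on the same strand, and within the gene NR6A1 on the opposite strand. miR-181a-2-3p is at chr9:124692518-124692539 and miR-181b-2-3p at chr9:124693763-124693782. MIR181C (13874699 to 13874808) and MIR181D (13874875 to 13875011) are on chromosome 19, plus strand, within introns of transcripts of the protein-coding gene NANOS3, with no annotated exon over them.

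Libraries held between 1522210 and 3880241 reads on miRNAs, and the 6 members made up 0.761% to 1.15% of them. miR-122-5p, the defining miRNA of hepatocytes, ranked 3 by reads in all 12 libraries, with 55353 to 105331 CPM (reads relative to the library's total, on a common scale). A read of miR-181a-5p or miR-181b-5p that maps to both of its loci appears to be counted at each. The number of multi-mapping reads was even in all 24 of their values, against 82.9% of the 591 such values above 0 of all miRNAs with 2 loci and 44.9% of the 1992 such values above 0 of miRNAs with 1 locus. Counted once, miR-181a-5p had 3419 ± 431 CPM in Control libraries, 3713 ± 467 CPM in DMSO libraries and 3533 ± 369 CPM in PlaB libraries (SD, n = 4). In the same order, miR-181b-5p had 2228 ± 164, 1997 ± 253 and 2044 ± 217 CPM. These means are below those of the deposited values given next. No other member had a multi-mapping read.

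Of the 4 guides, miR-181a-5p and miR-181b-5p held nearly all reads. CPM of miR-181a-5p in the 4 Control libraries was 6336, 5089, 3907 and 5464, in DMSO 4792, 5870, 5534 and 5277, and in PlaB 5110, 5862, 5338 and 6439. CPM of miR-181b-5p was 3716, 2964, 2640 and 3382 in Control, 2279, 2894, 3046 and 2564 in DMSO, and 2948, 3559, 2742 and 3133 in PlaB. The conditions overlapped for both guides. The share of miR-181a-5p reads that multi-mapped was 73.2% to 79.3% in Control replicates 2 and 3 and DMSO replicates 1 and 2. In the other 8 libraries, all PlaB libraries among them, it was 98.0% to 99.5%. The same libraries were low for miR-181b-5p, at 62.9% to 71.0%, against 91.1% to 93.9% in the others. The part of this share in the CPM values was tested only by counting such reads once. That was not done for the ratios of arms. miR-181c-5p (16.9 to 54.6 CPM) and miR-181d-5p (23.0 to 46.8 CPM) were low in all libraries, with 27 to 179 and 48 to 152 reads.

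Both miR-181a passengers were less abundant than miR-181a-5p, whose reads do not tell its loci apart. Of these passengers, miR-181a-3p differed between conditions. CPM of miR-181a-3p was 498, 492, 321 and 380 in Control, 285, 329, 205 and 198 in DMSO, and 199, 192, 62.1 and 123 in PlaB. All 4 PlaB libraries were below all 4 Control libraries, while DMSO overlapped with both. CPM of miR-181a-2-3p, from the chromosome 9 hairpin, was 867, 653, 673 and 623 in Control, 760, 513, 601 and 465 in DMSO, and 814, 524, 485 and 468 in PlaB, and all conditions overlapped.

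**Figure D1:**
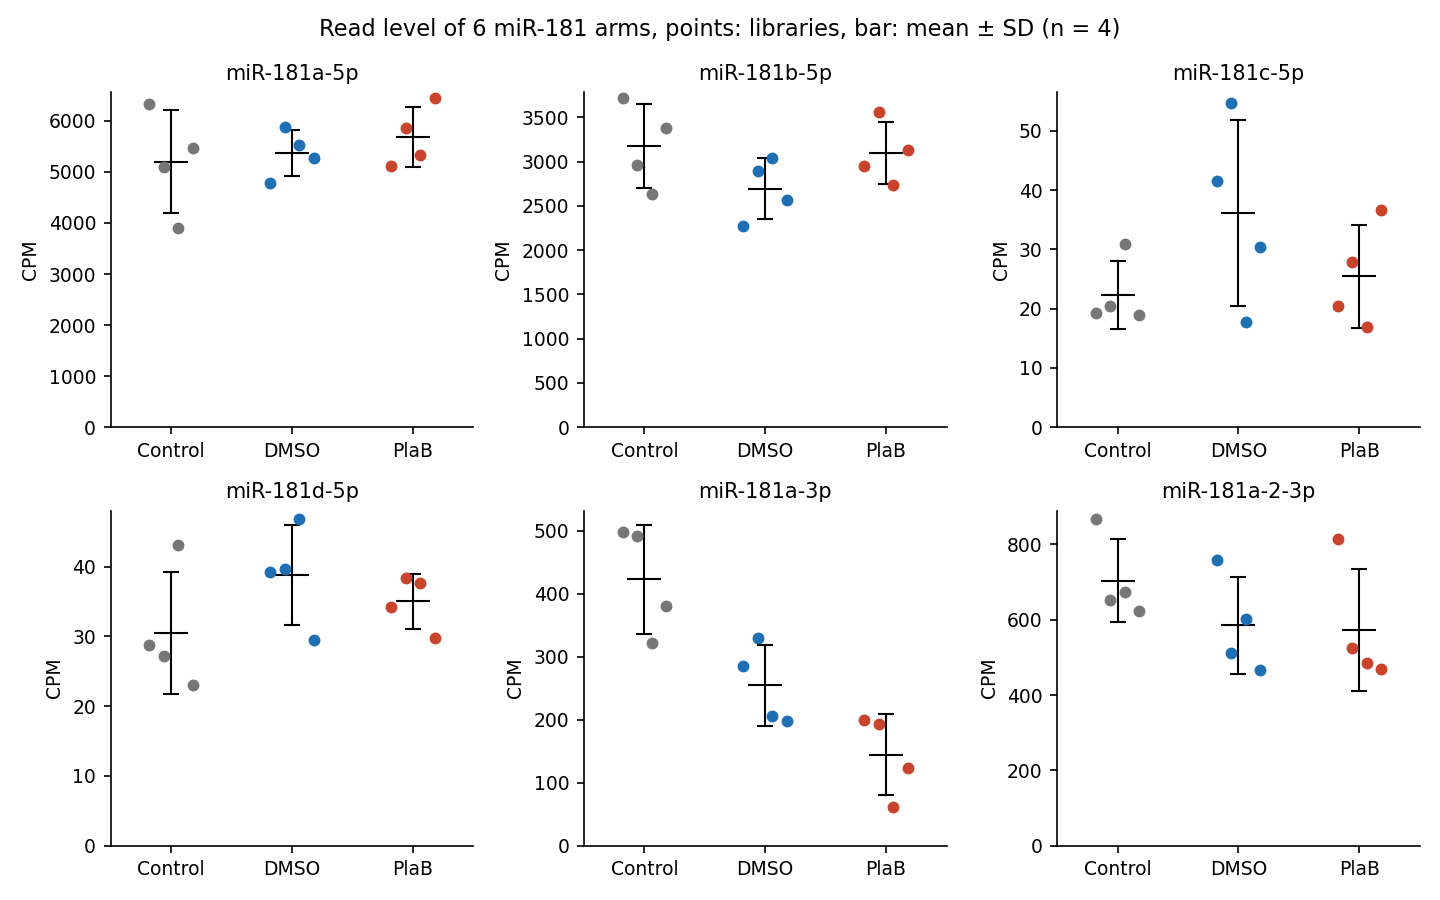
Read level (CPM, linear axis from 0, own scale per panel) of the 6 members in Control, DMSO and PlaB. Points are libraries, and bars are the mean and SD of 4 libraries. The mean of miR-181a-3p is 423 CPM in Control, 254 in DMSO and 144 in PlaB, with PlaB below Control in every library, while in the other panels all conditions overlap.

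Read counts of the 12 libraries were fitted together and compared by the quasi-likelihood test of edgeR, and p-values were adjusted by the Benjamini-Hochberg method over the 537 miRNAs that passed a filter on low counts, all 6 members among them. DMSO against Control isolates 4SU. Of all miRNAs tested, 0.931% were higher and 5.03% lower in DMSO, and 0 of the 6 members passed the threshold of 0.05. By DESeq2 also 0 members passed, and at an unadjusted p under 0.05 the count was 1, miR-181a-3p (log2 fold change −0.72, SE 0.288, edgeR adjusted p = 0.213). With the experiment number as a block, miR-181a-3p passed (−0.72, adjusted p = 0.00960), and 60 miRNAs in all passed in place of 32. miR-181b-3p, the passenger of MIR181B1, had 141 ± 46.8 CPM in Control and 33.2 ± 9.02 in DMSO (SD, n = 4) and fell by 2.07 on the log2 scale (SE 0.287, edgeR adjusted p = 0.000185). The log2 changes of the other members ran from −0.26 for miR-181a-2-3p to 0.72 for miR-181c-5p.

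PlaB against DMSO isolates PlaB treatment. No miRNA was higher (0%) and 0.372% were lower in PlaB, which is 2 of 537 (30 at an unadjusted p under 0.05, and 6 by DESeq2), and 0 of the 6 members passed by either tool. miR-181a-3p, the 1 member with an unadjusted p under 0.05, had a log2 fold change of −0.83 (SE 0.292, edgeR adjusted p = 0.505) and passed with the block (−0.90, adjusted p = 0.00963), where 6 miRNAs passed in all. miR-181b-3p had a change of −1.28 (edgeR adjusted p = 0.135) and −1.28 with the block (adjusted p = 0.00204), and it passed also by DESeq2 (−1.23, adjusted p = 0.0141) and without a filter (edgeR adjusted p = 0.00297). PlaB against Control combines both treatments. Here 0.372% of miRNAs were higher and 6.33% lower, and 1 of 6 members passed. miR-181a-3p fell by 1.54 on the log2 scale (SE 0.295, edgeR adjusted p = 0.00262), and it stayed past the threshold in all 19 alternative fits, where the adjusted p was at most 0.0132. miR-181a-2-3p changed by −0.29 (SE 0.171, edgeR adjusted p = 0.472), and with the block the adjusted p was 0.0498. Of the other arms tested, miR-181b-3p fell by 3.34 to 13.7 ± 4.17 CPM, the most negative change of all 537, and miR-181b-2-3p fell by 1.34 to 11.3 ± 1.46 CPM (edgeR adjusted p = 3.16e-06 and 0.0293). The call on miR-181b-2-3p was lost in 8 of 19 alternatives, among them without Control replicate 1, 3 or 4 or any 1 PlaB library, at adjusted p of up to 0.116. miR-181c-3p (7.69 to 11.9 CPM) passed in no contrast, and miR-181d-3p, with at most 0.923 CPM per condition, was not tested. The direction of miR-181a-3p was lower in all 3 contrasts under both the TMM and RLE scalings.

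Less abundant arms of other hairpins were counted for comparison. Of the 129 hairpins outside the family with both arms tested, the less abundant arm was higher in 0 and lower in 13 in DMSO against Control, with a median log2 change of −0.12 against 0.04 over all miRNAs tested. In PlaB against Control, 18 of 129 were lower and 0 higher, with a median of −0.30 against 0.01. For the more abundant arms, 3 of 129 were lower in each of these contrasts. In DMSO against Control 2 were higher, and in PlaB against Control 0 were, with medians of 0.05 and 0.01. No test was run on these lists.

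The T>C conversion rate of both abundant guides rose with 4SU and was lower with PlaB. The rate of miR-181a-5p was 0.0255%, 0.0843%, 0.0452% and 0.0322% in the 4 Control libraries, 1.23%, 1.13%, 0.860% and 1.06% in DMSO, and 0.236%, 0.223%, 0.272% and 0.290% in PlaB, from 42072 to 114191 covered T positions per library. The rate of miR-181b-5p was 0.0245%, 0.0429%, 0.0345% and 0.0251% in Control, 0.862%, 0.663%, 0.538% and 0.572% in DMSO, and 0.199%, 0.237%, 0.210% and 0.289% in PlaB. For both guides the 3 conditions did not overlap, and the order was Control, PlaB, DMSO. Where a read is counted at both loci, its covered T positions and conversions are too, so the distinct ones would be fewer.

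miR-181c-5p had no conversion in any Control library, with 1090 covered T positions in all, which allows a rate of up to 0.275%. Its DMSO libraries had rates of 0.104%, 0.839%, 2.31% and 1.40% from 1, 9, 5 and 5 conversions. In PlaB it again had 0 conversions in 1098 positions, a limit of 0.273%. The DMSO libraries thus differed among themselves, and replicate 1, with 161 reads, was the lowest. miR-181d-5p had 4 conversions in Control, 4 in DMSO and 1 in PlaB, each set in a single library, and its pooled rates were 0.182%, 0.104% and 0.0459%, the DMSO one from 3863 covered T positions. These limits, and the Wilson intervals below, treat conversions as independent counts and leave out the spread between libraries. The methods describe no removal of duplicate reads.

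In the libraries with 4SU the miR-181a passengers had the highest mean rates of the 6 members. Not every 3′ arm of the family was above its guide, since miR-181c-3p had a mean rate of 0.568% in DMSO, from 2 conversions, against 1.17% for miR-181c-5p. It had 0 conversions in Control and a mean of 0.962% in PlaB, from 2 conversions. The rate of miR-181a-3p was 0%, 0.0708%, 0.0286% and 0% in Control, 7.87%, 7.01%, 9.19% and 7.67% in DMSO, and 0.935%, 1.22%, 1.85% and 1.91% in PlaB. The Wilson 95% interval of its PlaB replicate 1, from 17 conversions, was 0.585% to 1.49%. That of PlaB replicate 3, from 11 conversions in 99 reads, was 1.04% to 3.29%. The rate of miR-181a-2-3p was 0.0277%, 0.0128%, 0.0164% and 0.0134% in Control, 3.54%, 4.05%, 4.17% and 3.36% in DMSO, and 2.96%, 2.10%, 3.75% and 2.46% in PlaB. For miR-181a-3p all PlaB libraries were below all DMSO libraries, while for miR-181a-2-3p the highest PlaB library lay within the DMSO range. In DMSO the mean rate of miR-181a-3p was 7.41 times and that of miR-181a-2-3p 3.53 times that of miR-181a-5p, and in PlaB these ratios were 5.80 and 11.0. Among the 368 miRNAs tested for rate, miR-181a-3p had the 3rd highest mean rate in DMSO and the 27th in PlaB, and miR-181a-2-3p the 15th in both. miR-181a-5p was the 72nd and miR-181b-5p the 97th in DMSO, where the median of all was 0.251%.

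**Figure D2:**
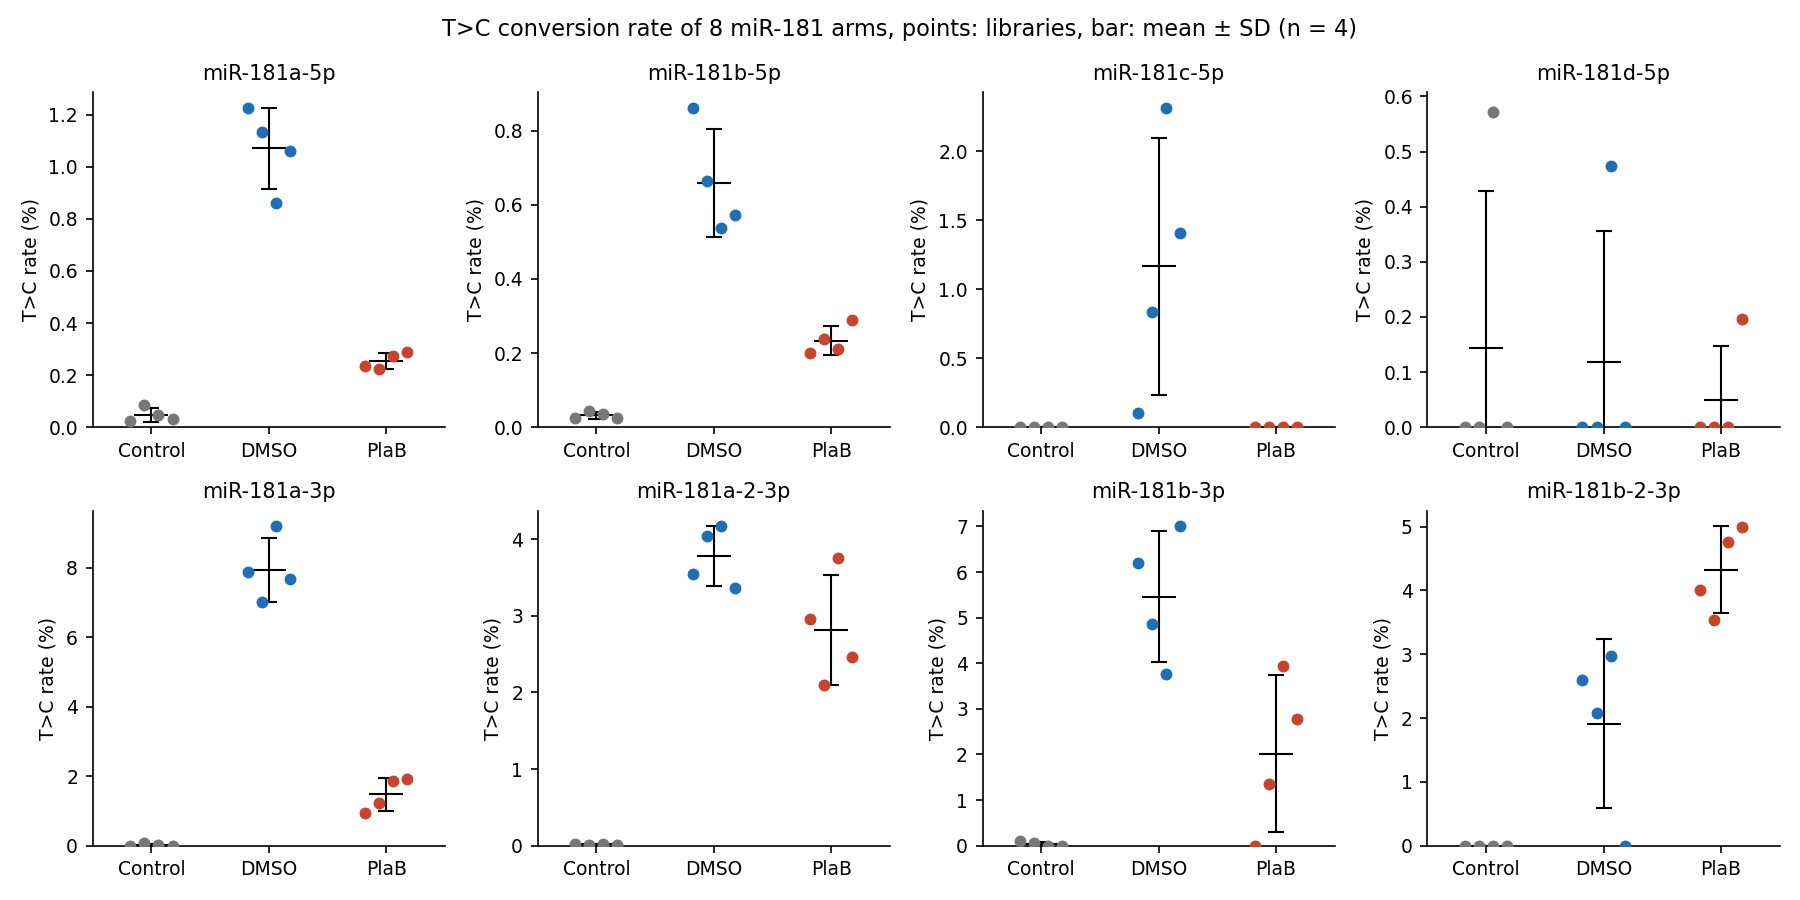
T>C conversion rate (% of covered T positions, linear axis from 0, own scale per panel) of the 6 members and the 3′ arms of both miR-181b hairpins in Control, DMSO and PlaB. Points are libraries, and bars are the mean and SD of 4 libraries. miR-181a-3p drops from 7.94% in DMSO to 1.48% in PlaB, whereas miR-181a-2-3p is at 3.78% and 2.82% with overlapping libraries.

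Conversions were tested by edgeR with covered T positions (log scale) as the offset, over the 368 miRNAs that passed the filter on reads, with covered T positions in all libraries and at least 1 conversion. The conversions of miR-181c-5p all lay in DMSO, so it entered the test through them. Its rates are given as a description and are not counted among the calls. The shares over all miRNAs leave out no miRNA for this reason, so they follow a looser rule than the counts of members. In DMSO against Control 50.5% of all miRNAs were higher and 0.272% lower, and 4 of 6 members were higher, miR-181a-3p, miR-181a-2-3p, miR-181a-5p and miR-181b-5p by edgeR and by DESeq2. The log2 change was 7.99 for miR-181a-3p, 7.61 for miR-181a-2-3p, 4.50 for miR-181a-5p and 4.37 for miR-181b-5p, with SE of 0.461, 0.438, 0.272 and 0.321 and edgeR adjusted p of at most 1.17e-39. The Control rate of miR-181a-3p rests on 6 conversions, 5 of them in replicate 2. Its change was 9.51 without Control replicate 2 and at least 7.59 without any other library. Over all 368 the median change was 3.06. For miR-181c-5p the pooled rate in DMSO was 2.78 times what 3 conversions over all Control libraries would give. The counting error of the DMSO rate is not part of this ratio. DMSO replicate 1, at 0.104%, was below that Control limit of 0.275%. miR-181d-5p did not pass (edgeR adjusted p = 0.839).

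In PlaB against DMSO 20.4% of all miRNAs were lower and 0% higher (119 at an unadjusted p under 0.05, and 75 calls by edgeR and 75 by DESeq2, all lower). Of the 6 members 3 were lower, with log2 changes of −2.47 (SE 0.331) for miR-181a-3p, −2.07 (SE 0.237) for miR-181a-5p and −1.49 (SE 0.273) for miR-181b-5p and edgeR adjusted p of 8.13e-12, 5.85e-16 and 1.38e-06. The median change over all 368 was −1.33. The rate of miR-181a-2-3p changed by −0.43 (SE 0.270, 95% interval −0.96 to 0.10, edgeR adjusted p = 0.255), and 0 of 20 alternatives called it. Without DMSO replicates 1 and 2 these 4 changes were −2.55, −1.91, −1.24 and −0.42, and the calls stood (edgeR adjusted p of at most 0.00541 for the first 3 and 0.460 for miR-181a-2-3p). For miR-181c-5p the pooled DMSO rate was 2.80 times the PlaB limit from 3 conversions, again as a description. The counting error of the DMSO rate is again left out, and DMSO replicate 1 was below that limit. miR-181d-5p had an edgeR adjusted p of 0.676. After subtraction of the Control mean, the PlaB rate was 0.184 of the DMSO rate for miR-181a-3p, 0.204 for miR-181a-5p, 0.322 for miR-181b-5p and 0.744 for miR-181a-2-3p.

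PlaB libraries still carried label above Control. In PlaB against Control 32.1% of all miRNAs were higher and 0.272% lower, and 4 of 6 members were higher. The log2 change was 7.19 for miR-181a-2-3p, 5.52 for miR-181a-3p, 2.88 for miR-181b-5p and 2.44 for miR-181a-5p, with edgeR adjusted p of at most 1.49e-18. With 1 library left out, miR-181a-2-3p ran from 7.02 to 7.47 and miR-181a-3p from 5.12 to 7.04, the highest without Control replicate 2, which holds 5 of its 6 Control conversions.

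Whether arms responded differently to PlaB was tested directly, as the log2 ratio of the rates of a pair of arms within each library, by a two-sided exact permutation of 4 against 4 libraries with adjustment over 5 pairs. The smallest p that 70 labelings allow is 0.0286. Libraries were not paired by experiment here, since an exact sign-flip permutation of the pairs allows no p below 0.125. The ratio of miR-181a-3p to miR-181a-2-3p was between 0.79 and 1.19 in DMSO and between −1.62 and −0.35 in PlaB, so the chromosome 1 arm was labelled more in every DMSO library and less in every PlaB library. The means of 1.07 and −0.92 differed by −1.99 (SE 0.282), a 3.97-fold shift (exact permutation p = 0.0286, adjusted 0.0357). Without DMSO replicates 1 and 2, taken as the libraries of combined runs, the difference was −2.09. Both passengers were also set against the 5p guide made at both loci. The ratio of miR-181a-3p to miR-181a-5p changed by −0.38 (SE 0.256) with overlapping libraries (exact permutation p = 0.229, adjusted 0.229). The ratio of miR-181a-2-3p to miR-181a-5p rose by 1.61 (SE 0.232) without overlap (exact permutation p = 0.0286, adjusted 0.0357).

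The miR-181b hairpins of the same loci gave the same direction on fewer counts. miR-181b-3p, from chromosome 1, had mean rates of 5.46% ± 1.43 in DMSO and 2.02% ± 1.72 in PlaB (SD, n = 4), with 86 and 7 conversions in all. miR-181b-2-3p, from chromosome 9, had 1.91% ± 1.33 and 4.33% ± 0.675, with 19 and 17 conversions. By edgeR neither change in rate passed (adjusted p = 0.255 and 0.528). The log2 ratio of their rates was between 0.33 and 3.12 in DMSO and between −3.04 and −0.19 in PlaB, a difference of −2.72 (SE 0.861, exact permutation p = 0.0286, adjusted 0.0357). DMSO replicate 4 of miR-181b-2-3p and PlaB replicate 1 of miR-181b-3p had 0 conversions, so their ratios rest on the 0.5 conversions added to each count. Between the abundant guides, the ratio of miR-181b-5p to miR-181a-5p rose from −0.71 in DMSO to −0.13 in PlaB, a difference of 0.58 (SE 0.133, exact permutation p = 0.0286, adjusted 0.0357), which missed the threshold when the share of converted reads replaced the rate (adjusted exact permutation p = 0.0714).

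**Figure D3:**
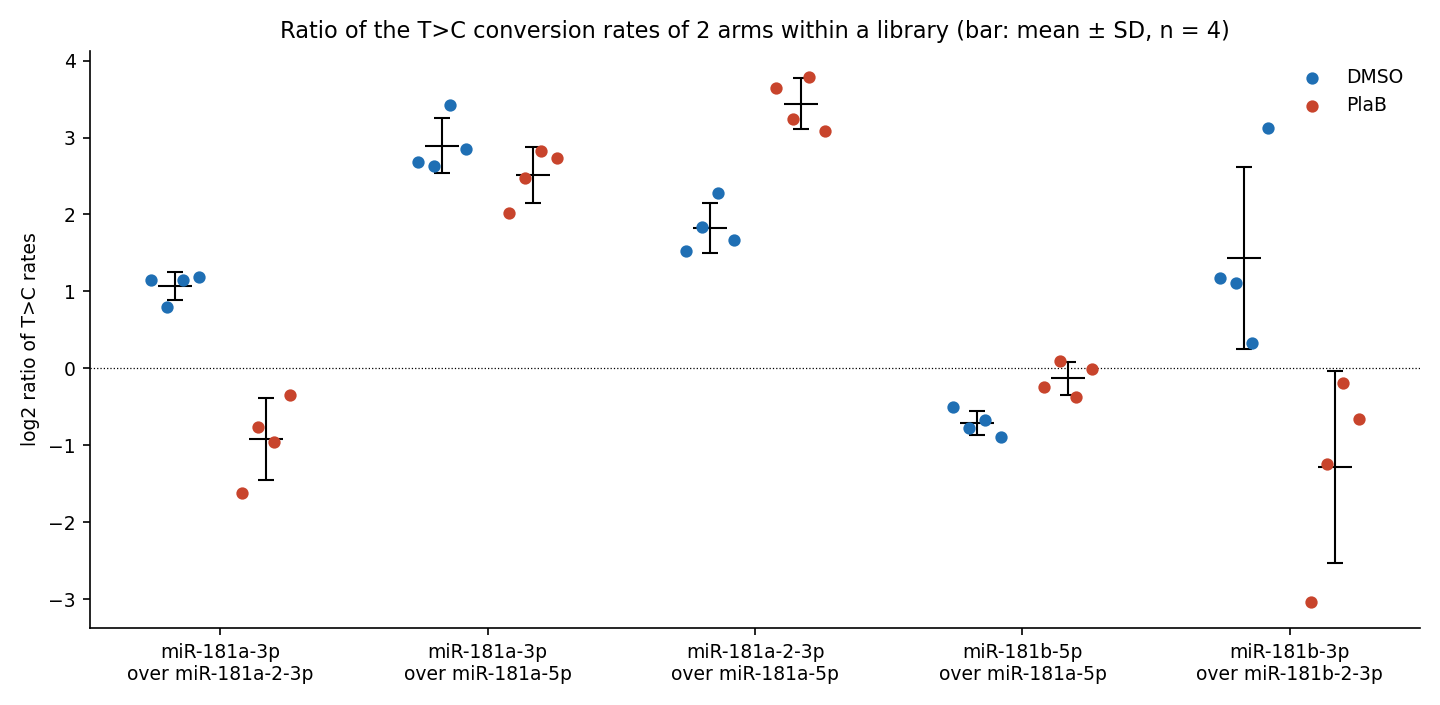
Log2 ratio of the T>C conversion rates of 2 arms within a library, for 5 pairs in DMSO and PlaB. Points are libraries, bars are the mean and SD of 4 libraries, and the dotted line marks equal rates. The ratio of miR-181a-3p to miR-181a-2-3p is above 0 in all DMSO libraries (mean 1.07) and below 0 in all PlaB libraries (mean −0.92), and the miR-181b pair lies on the same sides.

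For reads, no ratio of arms passed after adjustment. From Control to DMSO, miR-181a-3p over miR-181a-5p changed by −0.81 (SE 0.208) and miR-181b-5p over miR-181a-5p by −0.30 (SE 0.0683), both without overlap of libraries (exact permutation p = 0.0286, adjusted 0.0714 for both). The other 3 pairs overlapped between Control and DMSO. From DMSO to PlaB all 5 pairs overlapped. The largest changes in this contrast were from 1.29 to 0.24 (SE of the difference 0.454) for miR-181b-3p over miR-181b-2-3p and from −4.43 to −5.43 (SE of the difference 0.435) for miR-181a-3p over miR-181a-5p (exact permutation p = 0.0857, adjusted 0.143 for both).

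Reads with and without a conversion were also separated. In DMSO 44.5% ± 5.92 of miR-181a-3p reads carried a T>C conversion, against 18.6% ± 1.83 of miR-181a-2-3p, 5.68% ± 0.934 of miR-181a-5p and 4.40% ± 1.20 of miR-181b-5p (SD, n = 4). In PlaB the shares were 8.47% ± 2.79, 13.7% ± 3.66, 1.47% ± 0.158 and 1.62% ± 0.281. Converted reads of miR-181a-3p were at 112 ± 21.5 CPM in DMSO and 10.9 ± 2.82 in PlaB, a 10.2-fold difference without overlap of libraries, whereas its reads without a conversion were at 143 ± 46.0 and 133 ± 62.6 CPM. In Control its reads without a conversion were at 422 ± 86.5 CPM, 2.96 times the DMSO mean, and all 4 Control libraries (321 to 498) were above all 4 DMSO libraries (96.6 to 199). For miR-181a-2-3p, converted reads were at 109 ± 24.9 CPM in DMSO and 78.3 ± 28.3 in PlaB with overlap. For the guides, mean converted reads in DMSO were 3.60-fold (miR-181a-5p, 303 and 84.2 CPM) and 2.30-fold (miR-181b-5p, 116 and 50.5 CPM) those in PlaB, again without overlap. These separated values are descriptions and were not tested. In DMSO the 1294 converted reads of miR-181a-3p held 1385 conversions. The authors' filter on how fully a read matches the genome limits mismatches in such short reads. Whether it removed reads with several conversions, and so lowered the rates, shares or reads of strongly labelled arms, was not tested.

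Higher rates in the less abundant arm were seen in other hairpins too. Of 86 hairpins outside the family paired by name in the same way, the less abundant arm had the higher mean rate in DMSO in 52. Hairpins with a locus number in the name of a single arm, as in miR-181a-2-3p, are not among them. The median DMSO rate was 0.501% for the less abundant and 0.219% for the more abundant arms, and the highest was 14.8% and 3.87%, against 7.94% for miR-181a-3p. In PlaB against DMSO, 10 of 86 less abundant and 37 of 86 more abundant arms were lower, with median log2 changes of −1.33 and −1.34 and −1.33 over all tested. No test was run on these lists.

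The miRNAs outside the family most like the members were found by Pearson's r over the 12 libraries, which share conditions and depth, and are given as a description. For log2 CPM, among 528 miRNAs, miR-181a-3p was closest to miR-29b-1-5p (r = 0.898), miR-15b-3p (0.864) and miR-19b-1-5p (0.856), each with its lowest mean CPM in PlaB. miR-29b-1-5p had 30.7 CPM in Control, 12.4 in DMSO and 8.87 in PlaB. For the log2 rate, among 359 miRNAs, miR-181a-5p was closest to miR-92a-3p (r = 0.983), miR-193a-5p (0.976) and miR-182-5p (0.969). The rate of miR-92a-3p was 0.0257% in Control libraries, 0.200% with DMSO and 0.0715% with PlaB. miR-181a-2-3p was closest to miR-7-5p (r = 0.993), miR-21-5p (0.992) and miR-21-3p (0.987), whose mean rates in DMSO and PlaB were 0.596% and 0.552%, 0.332% and 0.266%, and 1.23% and 1.57%.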

How the data were processed

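Small RNA libraries of Huh7 cells (Control, DMSO and PlaB, 4 each) were grouped by their labels. The authors trimmed the reads with Trim Galore, mapped them to GRCh38 without a mapping quality threshold in the SLAMseq workflow of nf-core, which runs SLAM-DUNK, masked SNPs, and counted on mature miRNA coordinates. The deposited tables give the authors' counts (reads, reads with T>C conversions, conversions, covered T positions, multi-mapping reads), their CPM values, and the conversion rate as a fraction, given here in percent. CPM recomputed from the counts differed from the deposited values by at most 2.91e-11, and rates by at most 9.97e-17. The methods state that, for miRNA reads, a default filter on mapping integrity is stricter than the number of mismatches set as allowed. Multi-mapping reads were kept, and those of miR-181a-5p and miR-181b-5p appear to be counted at both loci.

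Reads were tested with edgeR 4.0.16 in R 4.3.3 (glmQLFit, TMM, filterByExpr), and conversions likewise but with log covered T positions as the offset, over miRNAs that passed the filter on reads and had covered T positions in all libraries and at least 1 conversion. p-values were adjusted by Benjamini-Hochberg over all miRNAs tested, with an SE from the F statistic and 95% intervals as 1.96 SE. Ratios of arms were tested in scipy 1.17.1 with 0.5 counts added. Named miRNAs were the members, the other family arms and the 3 most similar miRNAs per pattern. The members, lists and tests were chosen with earlier results of these data known. Scripts were tested on simulated data. Alternatives were RLE factors, DESeq2 1.42.0, other filters, a replicate block, the compared libraries alone, converted reads per read, added counts of 1, each library left out, DMSO replicates 1 and 2 left out, and, chosen after seeing the data, multi-mapping reads counted once.

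The methods describe 4 independent experiments with all 3 conditions in each. Same-numbered libraries correlated in their deviations of log2 CPM from the condition mean with r of at least 0.208 over the 158 miRNAs above 100 CPM in all libraries, and of at least 0.0114 over all 537, where 8 of the 12 pairs were over 0.1. For log2 rates the medians of the same-numbered pairs were −0.0206, −0.0221 and 0.0476. The numbers were taken as experiments, and blocked values stand beside the fitted results they change. The ratios of arms were tested without pairing by experiment and have no blocked value.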

Additional observations from a re-analysis of the deposited data

Results flagged for a closer look

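In each condition the 4 libraries of a member were checked for a value far from the other 3, for CPM, rate, share of converted reads and share of multi-mapping reads. Of 56 such sets, 8 were picked out. About 1 in 20 is picked out by chance where sets are independent and their values are not tied. The CPM of miR-181c-5p in Control replicate 3 was 30.9 against 18.8 to 20.5, and that of miR-181a-2-3p in PlaB replicate 1 was 814 against 468 to 524. The other 6 concern miR-181d-5p, in which 1 library per condition had conversions and the other 3 had 0. They were Control replicate 3 with a rate of 0.572% and 2.56% of reads converted, DMSO replicate 3 with 0.474% and 4.21%, and PlaB replicate 4 with 0.196% and 1.75%. These rest on 4, 4 and 1 conversions. A set with 3 values of 0 and 1 above 0 is always picked out, and the rate and the share come from the same reads. The figure for chance does not apply to these 6.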

How the results depend on the processing

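The read and rate calls on miR-181a-5p, miR-181b-5p, miR-181a-3p and miR-181a-2-3p kept their side of the threshold in every alternative run, except for the reads of miR-181a-3p (DMSO against Control) without a filter (adjusted p = 0.00606), with the replicate block (0.00960) and in the 8 compared libraries alone (0.0493), its reads in PlaB against DMSO without a filter (0.00417) and with the replicate block (0.00963), and the reads of miR-181a-2-3p in PlaB against Control with the replicate block (0.0498), all of which passed there. The replicate block changed no other call on these 4 members. Counting multi-mapping reads once was run for reads only, so the rates have no such alternative. Whether the SE and p-values for the rates of miR-181a-5p and miR-181b-5p are too small for this reason was not tested. The fits over 100 CPM left out miR-181a-3p, which had 62.1 CPM in PlaB replicate 3. An exact sign-flip permutation test of arm ratios paired by experiment could not go below p = 0.125 and was not used.

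The number of miRNAs called for reads in DMSO against Control (32) became 60 with the replicate block, 8 among those over 100 CPM, 17 without DMSO replicates 1 and 2, and 15 to 37 with 1 library left out, the fewest without DMSO replicate 3. It also was 19 to 21 without Control replicate 1 or DMSO replicate 2 or 4. In PlaB against DMSO (2) it became 6 with DESeq2 and with the replicate block, 5 without a filter, 1 over 100 CPM, 0 with RLE factors, in the 8 compared libraries, without DMSO replicates 1 and 2 and with multi-mapping reads counted once, and 0 to 1 without any 1 library. In PlaB against Control (36) it was 6 over 100 CPM, with 28 to 36 when 1 library was left out. Calls for rate were 86 (DMSO against Control) and 74 (PlaB against Control) with a filter on conversions, where 88 miRNAs were tested, and 48 (PlaB against DMSO) without DMSO replicates 1 and 2. With 1 library left out they were 159 to 189, 99 to 119 and 55 to 85. The causes were not tested except for the smaller number of miRNAs tested under the stricter filters.

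The log2 ratio of miR-181b-5p to miR-181a-5p rates rose by 0.52 by share of converted reads (adjusted exact permutation p = 0.0714). That of miR-181a-3p to miR-181a-5p reads (DMSO against Control) was −1.12 without DMSO replicates 1 and 2. With 1 library left out, the PlaB effect on rates lay between −2.18 and −1.76 for miR-181a-3p over miR-181a-2-3p, 1.49 and 1.76 for miR-181a-2-3p over miR-181a-5p, and −3.09 and −2.13 for the miR-181b passengers. With 3 libraries against 4 no p below 0.0571 can be reached.

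Changes that turned direction had all missed the threshold. With 1 library left out, the log2 change of reads of miR-181a-5p (DMSO against Control) ran from −0.079 to 0.16, of miR-181a-2-3p (PlaB against DMSO) from −0.24 to 0.15, and in PlaB against Control of miR-181b-5p from −0.11 to 0.072, of miR-181c-5p from −0.0063 to 0.40 and of miR-181c-3p from −0.53 to 0.12. The rate of miR-181d-5p ran from −3.25 to 2.88 (DMSO against Control), −2.91 to 1.82 (PlaB against DMSO) and −3.31 to 1.84 (PlaB against Control), and that of miR-181c-3p from −2.11 to 2.93 (PlaB against DMSO). In PlaB against DMSO, reads of miR-181a-2-3p changed by 0.0072 with RLE factors, 0.0069 with DESeq2, 0.036 with multi-mapping reads counted once, 0.019 in the 8 compared libraries and 0.091 without DMSO replicates 1 and 2, where miR-181c-5p was at 0.069, and reads of miR-181a-5p by −0.031 with multi-mapping reads counted once. Reads of miR-181b-5p in PlaB against Control changed by 0.0031 with RLE factors and with DESeq2. The rate of miR-181d-5p in DMSO against Control changed by 0.40 as converted reads per read and 0.61 without DMSO replicates 1 and 2, where that of miR-181c-3p in PlaB against DMSO was −0.11. Their causes were not tested. The rates of miR-181c-5p and miR-181d-5p rest on at most 9 conversions in any library.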
